A study of Homo sapiens with 6 samples.

Results

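Transcripts of 40 genes of homologous recombination and the DNA damage response were followed in A673 cells that carry the lysyl oxidase propeptide (LOX-PP). The 40 genes were listed by name and found on the array through the transcript accession of their probes, out of 20503 genes that could be named there. Each gene was represented by 1 probe, the one with the highest mean signal over the 6 arrays. All 40 genes had a probe, and all 40 passed the requirement that a probe stand out from background on 3 or more arrays of the 6. On all 6 arrays 39 of them were above background, the exception being LIG4. Values are given as log2 signal minus the 75th percentile of the array, and differences as LOX-PP minus control. A probe passed the threshold at an adjusted p under 0.05 (limma with Benjamini-Hochberg adjustment over all 32610 tested probes).

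A673 is a cell line derived from an Ewing sarcoma. TR stands for the tetracycline repressor that both groups express, so that a cDNA inserted with a lentiviral vector is transcribed when doxycycline is added. The control cells, A673/TR/empty, carry an empty vector. The A673/TR/LOX-PP cells carry the cDNA of the propeptide and were given doxycycline for 72 hours. The sample labels give the dose as 1 µM and repeat this treatment for all 6 samples, so whether the control cultures also received it is not settled. The cells had been selected with zeocin after infection, and clones with the highest induction were chosen for the study. The sources used here do not say which clone or population was hybridised, so the construct and the selected cell population cannot be told apart. Total RNA of 3 separate experiments per group was labelled with Cy3 and hybridised in 1 colour to Agilent arrays.

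A double-strand break is bound by the MRN complex, which recruits the kinase ATM and starts the trimming of the ends. Where the ends are trimmed, BRCA1 and PALB2 bring BRCA2, and the break can be copied from the sister chromatid. Where they are not, the Ku proteins and DNA-PK rejoin them directly. The Fanconi anaemia proteins open crosslinks between the strands and pass them to recombination, and ATR with CHEK1 holds the cell cycle while this is done. Many of these genes are transcribed in S phase under E2F control, and Ewing sarcoma cells are known for a high load of replication stress.

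On each of the 6 arrays, from 56.9% to 74.8% of spots for genes exceeded background clearly, and 0 of them were saturated. The 75th percentile of the signal was between 6200 and 7640 in the controls and between 2850 and 6250 with LOX-PP. Replicate 1 of LOX-PP lay on slide 2 and scan 2 and was read with its own grid file, whereas the other 5 arrays shared slide 1 and scan 1. LOX, the gene behind the construct, has 1 probe, and the files do not say whether it lies within the propeptide cDNA. LOX did not pass the threshold, with 0.13 ± 0.22 (SD, n = 3) on the control and -0.70 ± 0.58 (SD, n = 3) on the LOX-PP arrays (adjusted p = 0.216). Since the LOX signal was not raised with the construct, all directions given here rest on how the samples were labelled. All 6 Ewing sarcoma markers examined (CD99, NKX2-2, NR0B1, STEAP1, PRKCB and CCND1) were above background on all arrays. Of the 4 epithelial markers, KRT14 was higher on the LOX-PP arrays by 5.26 on the log2 scale (adjusted p = 1.41e-04), whereas KRT5 and CDH1 were above background on no array. The summed signal of these 4 was between 0.193 and 0.224 times the 75th percentile in the controls and between 3.96 and 5.13 times with LOX-PP. For the 4 fibroblast markers it was between 6.52 and 7.97 times and between 7.4 and 10.7 times. LUM was lower on the LOX-PP arrays (adjusted p = 0.0191), but was above background on only 2 of 3 control and 1 of 3 LOX-PP arrays. COL3A1, DCN and COL1A1 did not pass the threshold, with differences of -1.37, -0.67 and 0.65. The summed signal of the 4 haematopoietic markers was between 0.537 and 0.702 times and between 0.536 and 1.1 times. The part of these differences in the results on repair genes was not tested.

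NBN, which encodes the subunit of the MRN complex that binds ATM, was the 1 gene of the 40 to pass the threshold, compared with 7.08% of the 16560 named genes tested, and it fell in the LOX-PP cells. NBN has 1 probe on the array, so its call could not be compared with that of another probe. NBN stood at 0.55, 0.35 and 0.26 in the controls and at -1.51, -1.47 and -1.49 with LOX-PP. The groups were 1.72 apart at their nearest arrays, and the LOX-PP arrays differed among themselves by far less than that. The difference was -1.87 ± 0.20 (standard error) with a 95% interval from -2.34 to -1.40, which is a signal 3.66-fold lower (adjusted p = 0.0044, limma with Benjamini-Hochberg adjustment over all probes). In RNA of whole cultures, less transcript per cell and fewer cells with the transcript cannot be told apart. Over 17 alternatives in processing NBN stayed past the threshold in all 17, with differences from -1.96 to -1.72 and adjusted p values from 0.00175 to 0.0463. These alternatives are not independent checks. Averaging the probes of a gene left the values of NBN as they were, and the authors' processed values rest on the same scaling. The slide block equals leaving out LOX-PP replicate 1. Without LOX-PP replicate 1, so that all arrays came from slide 1, the difference was -1.86.

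The other MRN genes did not pass the threshold. MRE11, the nuclease of the complex, was at 0.97, 1.65 and 1.23 in the controls and 1.17, 0.57 and 1.02 with LOX-PP, so that the groups overlapped (difference -0.36, adjusted p = 0.504). RAD50, the ATPase that tethers the ends, was at 1.96, 2.12 and 2.04 and at 1.63, 2.23 and 2.26, with a difference of 0.00 and a 95% interval from -0.58 to 0.59. The log ratio of NBN to RAD50 was between -1.78 and -1.41 in the controls and between -3.75 and -3.14 with LOX-PP. For NBN over MRE11 it was between -1.30 and -0.42 and between -2.68 and -2.04. Neither ratio overlapped between the groups, which follows from the separation of NBN. An exact permutation test over the 20 splits of the arrays gave p = 0.1 for each ratio. That value is fixed once the groups do not overlap, so it adds nothing to the separation.

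**Figure D1:**
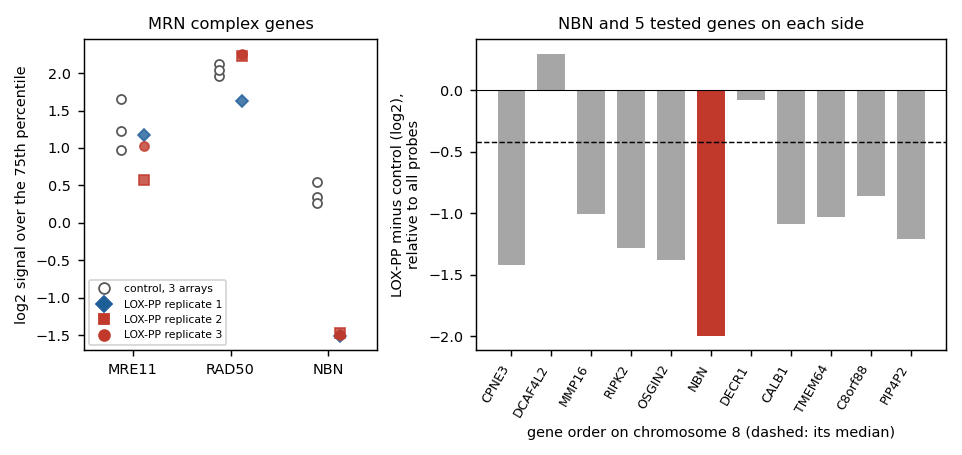
Left, log2 signal over the 75th percentile of the array for MRE11, RAD50 and NBN, with 1 point per array. Right, bars show the LOX-PP minus control difference (log2) of NBN and of the 5 tested genes on each side of it along chromosome 8, relative to the median of all probes, and the dashed line marks the median of the chromosome, -0.42. The 3 LOX-PP arrays of NBN lie together at -1.51 to -1.47, and 9 of its 10 neighbours lie below 0.

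NBN lies on chromosome 8, where 73.3% of the tested genes lay below the median of all probes. Over all tested probes the median difference between LOX-PP and control arrays was 0.13, so differences are from here on also given relative to that median, where NBN stood at -2.00. Of the 5 tested genes on each side of NBN, 9 of 10 lay below the median of all probes, with a median of -1.06, and 1 of the 10 passed the threshold. OSGIN2, the nearest on one side, was that gene, at -1.38 (adjusted p = 0.0333), whereas DECR1, the nearest on the other, was at -0.08. NBN was thus lower than each of these 10 neighbours, and lower than the median of the 558 tested genes of chromosome 8, -0.42. PRKDC, which encodes the catalytic subunit of DNA-PK and lies elsewhere on the same chromosome, stood at -0.46 among neighbours with a median of -0.09, whose lowest adjusted p was 0.275. BRCA2 and LIG4 lie on chromosome 13, whose 282 tested genes had a median of -0.83. BRCA2 was at -0.88, close to that value, and its 10 neighbours had a median of -0.63, with 2 called lower. LIG4 was at -0.63 and its 10 neighbours had a median of -0.54, with 3 called, 2 of them lower. Some neighbours were dim. Beside NBN these included DCAF4L2 at 0.30 and CALB1 at -1.09, with control means of -5.01 and -4.02. Of the 10 neighbours of BRCA2, 7 lay below the median of all probes. The others, EEF1DP3, FRY and N4BP2L1, were all dim, with control means from -4.97 to -4.33.

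As a group the 40 genes lay slightly low, and 1 passed the threshold. Of all named genes 3.37% passed as lower and 3.71% as higher on the LOX-PP arrays, and of all tested probes 5.67% passed. At an unadjusted p under 0.05, 6 of the 40 passed, all 6 lower, compared with 23.7% of named genes (12% lower and 11.7% higher). The total was thus not above the background. The median difference of the 40 genes was -0.43 relative to all probes, compared with -0.09 for all named genes, whose quartiles were -0.46 and 0.30. Of the 40 genes 33 (82.5%) lay below the median of all probes, compared with 56.5% of named genes. This shift was smaller under other scalings, with a median of -0.21 and 25 of 40 genes (62.5%, against 50.7% of named genes) under quantile normalization. Under cyclic loess the median was -0.23 with 26 genes (65%, against 51.2%). It also rested in part on single arrays, being -0.20 without control replicate 2 and -0.27 without LOX-PP replicate 2. The control and LOX-PP groups did not overlap for 14 of the 40 genes, 12 of them lower and 2 higher. Among named genes the groups did not overlap for 33.7%, with 18.2% lower and 15.5% higher, so that the total for the repair genes was near the background.

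**Figure D2:**
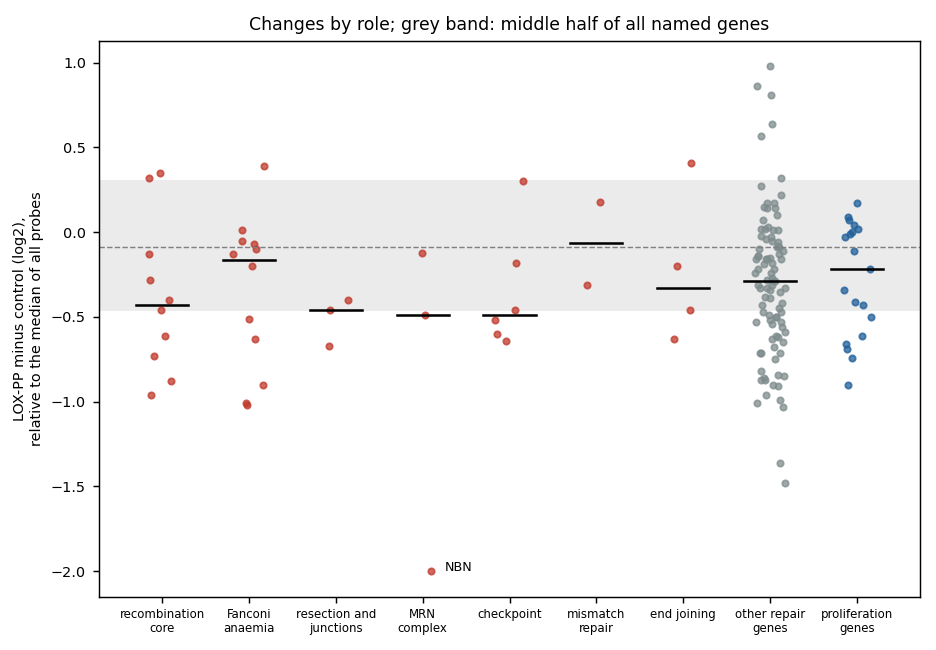
Difference between LOX-PP and control arrays (log2, relative to the median of all probes) for each of the 40 genes by role in red, the other repair genes in grey and the proliferation genes in blue, with black bars for medians. The grey band spans the quartiles of all named genes, from -0.46 to 0.30, and the dashed line their median, -0.09; apart from NBN at -2.00 the red points lie between -1.02 and 0.41.

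Of the 10 genes of the recombination core none passed the threshold, and 8 lay below the median of all probes, though RAD51C and RAD54L changed side under quantile normalization. BRCA1 and its partner BARD1, which together form a ubiquitin ligase, lay on opposite sides of 0 in their differences. BRCA1 was at 1.28, 1.52 and 1.35 in the controls and 1.82, 1.69 and 1.98 with LOX-PP, every LOX-PP array above every control (difference 0.45, 95% interval -0.04 to 0.93, adjusted p = 0.269). BARD1 was at 1.95, 1.98 and 1.84 and at 0.66, 1.51 and 1.80, all LOX-PP arrays lower but by only 0.04 at the nearest pair (difference -0.60, adjusted p = 0.332). Without LOX-PP replicate 1 the BARD1 difference was -0.27. The opposite sides of this pair were not tested against each other. BRCA2, which acts with PALB2 at the trimmed ends, was at -0.16, -0.24 and -0.53 on the control arrays. It was at -0.38 on LOX-PP replicate 1, within the control range, and at -1.57 and -1.25 on the other two (difference -0.76, adjusted p = 0.258). Without LOX-PP replicate 1 its difference was -1.10 and passed the threshold (adjusted p = 0.0473). PALB2, which links BRCA1 to BRCA2, was at 0.40, 0.45 and 0.28 and at -0.76, 0.38 and 0.07, with 1 LOX-PP array inside the control range (difference -0.48, adjusted p = 0.44, and -0.15 without replicate 1).

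The other genes of the recombination core also did not pass the threshold. RAD51AP1, which stimulates strand exchange, was at 0.76, 1.52 and 0.93 in the controls and -0.35, 0.66 and 0.40 with LOX-PP, without overlap (difference -0.84, adjusted p = 0.225, and -0.54 without LOX-PP replicate 1). RAD51C, whose product forms a complex with that of XRCC3, was at 3.17, 3.46 and 3.08 and at 2.92, 3.39 and 3.37. Its difference of -0.01 had a 95% interval from -0.57 to 0.56, so changes within that interval are not excluded by these arrays. XRCC3 was at 4.38, 4.12 and 4.19 and at 4.10, 3.96 and 3.64, lower on every LOX-PP array by a margin of 0.01 (difference -0.33, adjusted p = 0.447). XRCC2 was at 0.93, 0.83 and 0.65 on the control arrays and at 2.44 on LOX-PP replicate 1, with 0.92 and 0.47 on the other two. The difference was 0.47 (adjusted p = 0.632) with that array and -0.11 without it. RAD52, which anneals single strands, was at 0.34, 0.47 and 0.54 and at -0.41, 0.59 and 0.34, and its difference of -0.27 turned to 0.02 without LOX-PP replicate 1. RAD54L, a motor protein that moves along DNA, overlapped between the groups (difference -0.16).

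**Figure D3:**
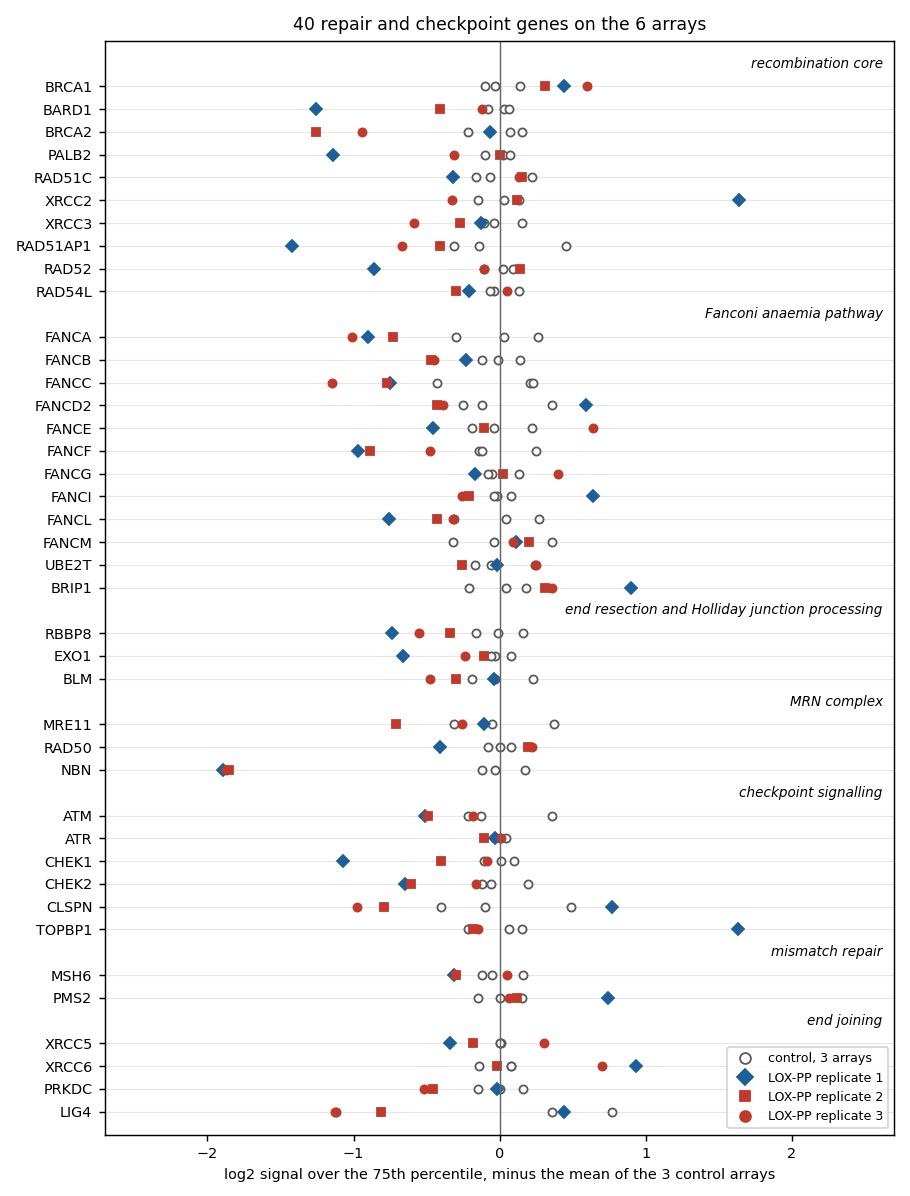
Signal of the 40 genes on each array (log2 over the 75th percentile, minus the mean of the 3 control arrays), by role. Open circles are the 3 control arrays, the blue diamond is LOX-PP replicate 1 and red symbols are LOX-PP replicates 2 and 3; NBN is the gene whose LOX-PP arrays lie together far to the left, and XRCC2 and TOPBP1 have their blue diamond far to the right.

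Of the 12 Fanconi anaemia genes none passed the threshold by their brightest probe, and 5 were lower and 1 higher without overlap, against 18.2% and 15.5% of named genes. The core complex of this pathway ubiquitinates FANCD2 and FANCI at a stalled fork. FANCA was at 2.17, 2.40 and 1.84 in the controls and 1.24, 1.41 and 1.13 with LOX-PP (difference -0.88, adjusted p = 0.0841). FANCC was at 2.53, 2.55 and 1.89 and at 1.57, 1.55 and 1.17 (difference -0.90, adjusted p = 0.115). FANCF, the adaptor that joins the subcomplexes, was at 2.64, 3.03 and 2.66 and at 1.81, 1.89 and 2.30 (difference -0.78, adjusted p = 0.123). By the brightest probe of each, every LOX-PP array was below every control array, by 0.42, 0.32 and 0.34 at the nearest pair. None of these 3 probes passed the threshold over all probes. The second probe of FANCC overlapped between the groups (difference -0.52, adjusted p = 0.479), and so did the dimmer probes of FANCA (difference -0.40 each). FANCF has a second, dimmer probe, which passed the threshold. It was at 2.07, 2.32 and 1.95 in the controls and 0.59, 0.86 and 1.07 with LOX-PP, a difference of -1.27 ± 0.23 (standard error, adjusted p = 0.0274). This call was lost in 7 of 16 alternatives, among them leaving out any single control array or LOX-PP replicate 2, with adjusted p values from 0.0159 to 0.147. FANCF also passed when its probes were averaged (difference -1.03, adjusted p = 0.0276).

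The other core genes showed smaller differences. FANCB was at -0.17, 0.09 and -0.06 in the controls and -0.28, -0.52 and -0.50 with LOX-PP, without overlap (difference -0.38, adjusted p = 0.331). FANCL, the ligase subunit, was at 3.12, 3.70 and 3.47 and at 2.67, 3.00 and 3.11, the groups 0.02 apart (difference -0.50, adjusted p = 0.296). FANCE, FANCG and FANCM overlapped between the groups, with differences from 0.02 to 0.14, and so did UBE2T, the conjugating enzyme that works with FANCL, with -0.01. FANCD2, the substrate of the complex, was at 1.43, 2.04 and 1.56 and at 2.27, 1.25 and 1.29 by its brightest probe. Here LOX-PP replicate 1 was the highest of all arrays and the other two the lowest (difference -0.07, adjusted p = 0.929). A second probe of FANCD2 did not follow this pattern, with 1.58, 1.67 and 1.57 on the control and 0.89, 1.05 and 1.08 on the LOX-PP arrays (difference -0.60, adjusted p = 0.137). The third probe overlapped between the groups and, like the brightest, had its highest value on LOX-PP replicate 1 (difference -0.13, adjusted p = 0.835). FANCI, the partner of FANCD2, was at 3.90, 4.0 and 3.88 and at 4.56, 3.71 and 3.66, again with replicate 1 on the other side of the controls from replicates 2 and 3 (difference 0.05, adjusted p = 0.941). Without replicate 1 the differences were -0.41 for FANCD2 by its brightest probe and -0.24 for FANCI, neither past the threshold. BRIP1, a helicase that binds BRCA1, was with BRCA1 the other gene that was higher without overlap, at -0.55, -0.41 and -0.80 against 0.31, -0.28 and -0.23 (difference 0.52, adjusted p = 0.289, and 0.33 without LOX-PP replicate 1).

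The promoters of 36 of the 40 genes were found in the RefSeq table of sequences (GRCh38.p14), each as 1 or more windows from 250 bases before to 50 bases after a transcript start. FANCI, NBN, PRKDC and XRCC5 were not listed there. Of 54 windows of the repair genes, 44.4% held TTCCCGC or TTGGCGC, each a part of the E2F site, on either strand, compared with 9.23% of all 35116 windows. By gene, 19 of the 36 had such a match in at least 1 window. The CCAAT box was in 48.1% of the windows of the repair genes and in 34.6% of all windows. The CHR element of late cell cycle genes, searched as TTTGAA, was in 7.41% and 15.2%. Matches were counted on both strands whether or not they overlapped, and windows of 1 gene can overlap each other. The median difference on the arrays was -0.31 relative to all probes for the 19 genes with an E2F match and -0.51 for the 17 without, with overlapping ranges, from -1.02 to 0.41 and from -0.90 to 0.18. The promoters of 4 genes that were lower without overlap by their brightest probe are shown, with matches in capitals. FANCA, FANCC and FANCF hold different sets of motifs, with an E2F match in FANCA and FANCC and a CCAAT box in FANCA and FANCF. The differences of FANCA, FANCC and FANCF were of like size by the brightest probe, but -0.56, -0.71 and -1.03 with the probes of a gene averaged. The first of 2 windows of RBBP8, also lower without overlap, and of BRCA1, higher without overlap, held none of these motifs and are not shown. The other window of BRCA1 held 1 E2F match and 1 CCAAT box, whereas that of RBBP8 held no motif either. FANCA (chr16:89816598-89816897, minus strand) has an E2F match 22 bases after the start and a CCAAT box 33 bases before it. FANCC (chr9:95317660-95317959, minus strand, the first of 2 windows) has an E2F match 45 bases before the start and a CHR match at 248. FANCF (chr11:22625774-22626073, minus strand) has no E2F match and CCAAT boxes 92 and 52 bases before the start. RAD51AP1 (chr12:4538640-4538939, plus strand) has an E2F match at 21 and a CCAAT box at 70 bases before the start. The sequences are given from 5′ to 3′ on the strand of the gene.
FANCA: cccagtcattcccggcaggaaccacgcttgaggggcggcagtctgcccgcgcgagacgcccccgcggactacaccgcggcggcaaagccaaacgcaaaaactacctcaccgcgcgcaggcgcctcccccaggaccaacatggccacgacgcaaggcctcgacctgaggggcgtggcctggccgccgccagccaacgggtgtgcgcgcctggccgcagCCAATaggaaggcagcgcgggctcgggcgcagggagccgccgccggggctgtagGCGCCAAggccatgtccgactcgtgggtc
FANCC: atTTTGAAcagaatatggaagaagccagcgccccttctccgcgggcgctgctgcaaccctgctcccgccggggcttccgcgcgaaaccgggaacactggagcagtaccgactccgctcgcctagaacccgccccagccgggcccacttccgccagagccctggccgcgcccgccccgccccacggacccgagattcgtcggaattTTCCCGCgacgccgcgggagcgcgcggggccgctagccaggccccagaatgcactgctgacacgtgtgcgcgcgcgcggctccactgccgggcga
FANCF: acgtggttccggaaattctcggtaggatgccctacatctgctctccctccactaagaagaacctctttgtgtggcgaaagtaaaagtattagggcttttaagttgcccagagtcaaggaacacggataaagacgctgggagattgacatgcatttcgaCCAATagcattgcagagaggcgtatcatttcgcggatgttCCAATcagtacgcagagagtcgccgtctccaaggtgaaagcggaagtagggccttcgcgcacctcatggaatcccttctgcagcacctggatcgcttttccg
RAD51AP1: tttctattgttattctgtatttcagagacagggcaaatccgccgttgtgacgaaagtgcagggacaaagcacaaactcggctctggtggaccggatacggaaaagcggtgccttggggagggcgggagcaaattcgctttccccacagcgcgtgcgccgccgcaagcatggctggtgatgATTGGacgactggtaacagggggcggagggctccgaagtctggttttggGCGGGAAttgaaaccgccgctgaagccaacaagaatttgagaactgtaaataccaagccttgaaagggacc

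The 3 genes that trim the ends and process recombination intermediates all lay below the median of all probes, and none passed the threshold. RBBP8, the cofactor that activates MRE11, was at 2.90, 3.07 and 2.75 in the controls and 2.17, 2.57 and 2.36 with LOX-PP, without overlap (difference -0.54, adjusted p = 0.218). EXO1, the nuclease of long-range resection, was at 2.53, 2.64 and 2.50 and at 1.90, 2.45 and 2.32, the groups 0.05 apart (difference -0.33, adjusted p = 0.453, and -0.17 without LOX-PP replicate 1). BLM, the helicase that dissolves double Holliday junctions, overlapped between the groups (difference -0.28, adjusted p = 0.544).

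None of the 6 checkpoint genes passed the threshold. ATM, activated by the MRN complex, was at -0.20, -0.11 and 0.38 in the controls and -0.49, -0.47 and -0.16 with LOX-PP, with the groups overlapping (difference -0.40, adjusted p = 0.409). ATR, which responds to single-stranded DNA, was among the most even genes of the list, at 2.16, 2.23 and 2.19 and at 2.16, 2.08 and 2.20, with a difference of -0.05 and a 95% interval from -0.50 to 0.40. CHEK1, the kinase downstream of ATR, was at 2.66, 2.75 and 2.54 and at 1.58, 2.25 and 2.56, the third LOX-PP array inside the control range (difference -0.52, adjusted p = 0.359, and -0.24 without LOX-PP replicate 1). CHEK2, downstream of ATM, was at 3.76, 3.82 and 4.07 and at 3.23, 3.27 and 3.72, without overlap but with a gap of 0.04 (difference -0.47, adjusted p = 0.296). The mediators had their highest value on LOX-PP replicate 1. TOPBP1, which activates ATR, was at 2.24, 2.15 and 1.87 on the control arrays, at 3.72 on LOX-PP replicate 1 and at 1.91 and 1.94 on the other two (difference 0.43, adjusted p = 0.668). CLSPN, the adaptor between ATR and CHEK1, was at 0.67, 1.26 and 0.37, then at 1.54 on LOX-PP replicate 1 and at -0.02 and -0.21 (difference -0.33, adjusted p = 0.755). Without replicate 1 the differences were -0.17 for TOPBP1 and -0.88 for CLSPN, and neither passed the threshold. Over the 40 genes, LOX-PP replicate 1 lay above all other arrays for 8 and below all others for 18.

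Genes of mismatch repair and end joining did not pass the threshold. MSH6, which recognises mismatches, was at 4.96, 5.24 and 5.03 in the controls and 4.77, 4.78 and 5.13 with LOX-PP (difference -0.19, adjusted p = 0.675). PMS2, a nuclease of mismatch repair, was at 2.05, 1.90 and 2.20 and at 2.79, 2.17 and 2.11 by its brightest probe. Its difference of 0.30 (adjusted p = 0.548) was 0.09 without LOX-PP replicate 1. The Ku genes XRCC5 and XRCC6, whose products form 1 ring around a DNA end, differed in their pattern over the arrays. XRCC5 was at 4.36, 4.37 and 4.36 and at 4.02, 4.18 and 4.66, on both sides of a tight control group (difference -0.08, 95% interval -0.64 to 0.49). XRCC6 was at 6.29, 6.51 and 6.51 and at 7.36, 6.41 and 7.13, with 2 LOX-PP arrays above the controls (difference 0.54, adjusted p = 0.343). This difference was 0.34 without LOX-PP replicate 1 and turned to -0.20 under quantile normalization. PRKDC was at 3.08, 2.92 and 2.77 and at 2.90, 2.46 and 2.40 (difference -0.33, adjusted p = 0.461). LIG4, the ligase of end joining, was dim, at -4.71, -4.30 and -6.19 and at -4.63, -5.88 and -6.20. Its probe was above background on 2 of 3 control arrays and 1 of 3 LOX-PP arrays, so the difference of -0.50 (adjusted p = 0.678) rests on few measured values, and it ran from -1.06 to -0.12 when single arrays were left out.

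Several probes were present for 10 genes of the list, and these allowed the direction to be compared within a gene. The brightest probe and the others lay on the same side of 0 in all of them. CHEK2 had 6 probes, all lower on the LOX-PP arrays by -0.75 to -0.26, and none passed the threshold. PMS2 had 6 probes, all higher by 0.17 to 0.50, again without a call. The PMS2 and CHEK2 genes have close pseudogene copies, and whether these probes also bind transcripts of the copies is not known from the files. FANCA had 3 probes between -0.88 and -0.40, of which the brightest was the one without overlap. The 2 probes of PRKDC were at -0.33 and -0.31 and those of FANCL at -0.50 and -0.42.

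**Figure D4:**
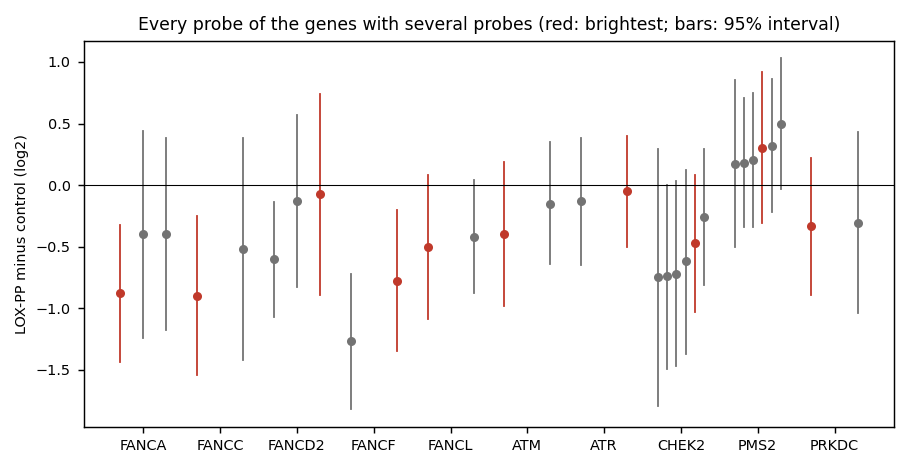
Difference between LOX-PP and control arrays (log2) for every probe of the 10 genes with more than 1 probe; points are estimates, bars the 95% interval of the limma fit, and red marks the brightest probe. Probes of a gene lie on 1 side of 0, and the interval of the second FANCF probe, from -1.82 to -0.72, excludes 0 by the most.

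The other genes of these pathways, 95 in a list that leaves out the 40, were examined in the same way. Of the 94 tested, 1 passed the threshold, RNF168, the ubiquitin ligase that marks histones at breaks. It rose from -1.28, -1.56 and -1.04 on the control arrays to -0.41, -0.20 and 0.06 on the LOX-PP arrays (difference 1.10, adjusted p = 0.0483), a call lost in 8 of 17 alternatives, among them leaving out any control array or LOX-PP replicate 2 or 3. At an unadjusted p under 0.05, 16 were lower and 5 higher, against 12% and 11.7% of named genes. The median of the 94 genes was -0.29 relative to all probes, 74 (78.7%) lay below the median of all probes, and under quantile normalization this became -0.08 with 55 genes. The 19 proliferation and S phase genes examined had a median of -0.22, 14 of them below the median of all probes, and 0 passed the threshold by limma (1 at an unadjusted p under 0.05). On single arrays, the median of the 40 genes relative to all named genes was 0.07, 0.28 and 0.00 in the controls and -0.06, -0.19 and -0.13 with LOX-PP. Control replicate 2 stood highest here and held the highest value of 19 of the 40 genes.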

How the data were processed

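The authors deposited, per the file headers, the intensity of each spot from Agilent Feature Extraction (version 10.7), corrected for background by the software, with flags for spots above background, saturated or outlying. They also deposited processed log2 values, which match the log2 intensity minus the 75th percentile of the array, centred on each probe's median, within 0.00537 on the 50528 probes with a value on every array. The paper's text does not name this normalization.

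After removal of control and outlier spots, the spots of a probe were averaged as log2 values and scaled to the array's 75th percentile. Probes above background on at least 3 of 6 arrays (32610 of 50599) entered a limma fit with no block (limma 3.58.1, R 4.3.3), and p values were adjusted by Benjamini-Hochberg over all of them, at a threshold of 0.05. The fit was tested on simulated arrays. Gene names came from a RefSeq table through transcript accessions (28174 of 50599 probes). Its assembly is later than that of the array design, so the only coordinates given are those of the promoter windows, on the assembly of the RefSeq sequences. With 3 arrays per group, their number limits the precision. Every one of the 40 genes is accounted for, and values on all arrays are given for genes past the threshold or without overlap and for 19 genes named in a fixed list. Values on all arrays of XRCC2, RAD52, TOPBP1, CLSPN, PMS2, the other FANCD2 probes and the naming of DECR1 were added after their values were seen. The 40 genes and the other lists were chosen with earlier results of these data known. Alternatives were other scalings, background correction, filters, blocks, the methods' t-test, averaging of probes and leaving out each array.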

Additional observations from a re-analysis of the deposited data

How the results depend on the processing

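NBN kept its direction and its call in all 17 alternatives, some of which reuse the same values for this gene. The number of repair genes past the threshold, 1, became 2 with the slide as a block, where BRCA2 joined, and 2 when a gene's probes were averaged, where FANCF joined. Leaving out 1 array gave from 1 to 2. The slide block leaves LOX-PP replicate 1 without weight, so it equals leaving that array out. The median of the 40 genes, -0.43, was -0.21 under quantile normalization, -0.23 under cyclic loess and -0.61 with no filter on dim probes, and from -0.48 to -0.20 without 1 array, the last without control replicate 2. Genes that changed side of the median of all probes numbered 10 under quantile normalization and 7 under cyclic loess. The number of genes below the median of all probes ran from 25 to 34. Of the other repair genes, 2 passed under quantile normalization, cyclic loess, normexp on the median signal, the filter on all 6 arrays and the slide block, 4 with the mean of all probes, and 0 with no filter, the replicate block and the methods' t-test. Leaving out 1 array gave from 0 to 2. The causes were not tested.

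Over all probes, 1848 passed, compared with 569 in the methods' t-test (6429 unadjusted), 516 with no filter and from 407 to 2066 without 1 array, the fewest without control replicates 1 (407) and 2 (444). The deviations of same-numbered arrays from their group means correlated at 0.27, -0.39 and 0.23. Those of differently numbered arrays correlated at -0.46 to 0.39. Deviations within groups of 3 arrays depend on each other, so these values cannot settle whether the replicate numbers pair the arrays. With the replicate block 893 probes passed, and NBN was again the 1 repair gene (difference -1.87).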
